A study of Mus musculus with 8 samples.

Results

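Interferons are secreted proteins that alert cells to viruses and other microbes. Type I interferons bind the receptor chains Ifnar1 and Ifnar2, the kinases Jak1 and Tyk2 then start a signal, and a complex that holds Stat2 and Irf9 binds a DNA element in the promoters of interferon-stimulated genes. The products of those genes sense foreign nucleic acids, block entry, translation or copying of viruses, and damp the signal again. Many of them are also transcribed at a low level without infection, and the level differs between blood cell types.

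The genes described here are 37 such genes, the 2 receptor chains and 35 genes known to be induced by interferon, out of the 27179 Entrez Gene identifiers in the count table. They were chosen by symbol, and all 37 were found in the table and passed the filter on low counts in every comparison.

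RNA was sequenced from sorted mouse bone marrow cells in 4 groups of 2 libraries. Erg fl/fl mice, which carried no Cre, gave 3 of the groups: pre-proB, proB and preB cells, in the order of B-cell development. The fourth group was again pre-proB cells, here from mice of the genotype Rag1Cre T/+;Erg Δ/Δ (called Erg-deficient below), in which a Cre active in lymphoid progenitors deletes both floxed alleles of the ETS factor gene Erg. Presence of Cre and loss of Erg cannot be told apart between the genotypes. The mice were between 7 and 10 weeks old, cells were sorted independently from 2 mice of each genotype, and which mouse gave which library is not given in the sources used here. The labels and methods name no treatment with interferon or a microbe. In bulk samples such as these, fewer cells of a type and less RNA per cell cannot be told apart.

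Levels are given as CPM, read counts scaled by library size with TMM factors, in replicate 1 and then replicate 2. Library totals lay between 15565381 and 18457632 counts, and 3 counts, the limit used for a gene without a count, correspond to 0.157 to 0.194 CPM. Erg itself had 69.8 and 25.1 CPM at the Erg fl/fl pre-proB stage, 145 and 129 at the proB stage, 19.4 and 28.5 at the preB stage and 2.49 and 2.58 in the Erg-deficient libraries, the lowest of the 8. The early B-like marker genes, Ebf1 among them, summed to 2071 and 1208 CPM in Erg fl/fl pre-proB, between 4889 and 7135 in the proB and preB libraries, and 773 and 809 in Erg-deficient pre-proB. Markers of plasmacytoid dendritic cells, a cell type known for making type I interferon, were high in all 4 pre-proB libraries. The 16 genes of that list summed to between 17366 and 20388 CPM there, against 1388 and 1354 at the proB stage and 2827 and 2869 at the preB stage, and no gene of the list was at 0 in any library. From proB to preB, where the sum rose, 11 of the 16 were called lower and 2 higher, with a median log2 fold change of -1.38. Of all genes tested 29.9% were called lower and 29.0% higher at that step. The defining marker Siglech had 3892 and 3794 CPM in control pre-proB and 46.9 and 57.4 in proB cells. Bst2, Tlr7 and Tlr9 of that list are also interferon-related and are counted in the lists of the interferon pathway too.

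The recognition sequence of the complex that holds Stat2 and Irf9 could be read in front of a number of the members. RefSeq promoter windows of build GRCm38.p6, the build of the counts, were on hand for 27 of the 37 genes and span 250 bases before to 50 after an annotated transcription start. The letters GAAA repeated after a gap of any 2 bases, on either strand, are the core of the interferon-stimulated response element (ISRE) and stood in the windows of 12 of the 27, 44.4%, against 3.83% of the 10412 windowed genes tested across the stages. The letters TTCNNNGAA, the gamma-activated site, stood in 9 of 27, 33.3%, against 8.37%. The ETS-type letters CCGGAAGT stood in 3 of 27, 11.1%, against 9.08%. A match is a string of letters and not a measured binding site. For 9 members the ISRE letters lay before the start, and these stretches are shown because they are the shared feature of genes that went different ways between stages below. Each is written 5′ to 3′ on the strand of the gene, with the matching bases in capitals.
Isg15, chr4:156200865-156200906, minus strand: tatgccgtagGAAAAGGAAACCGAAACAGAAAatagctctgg
Ifit1, chr19:34640775-34640823, plus strand: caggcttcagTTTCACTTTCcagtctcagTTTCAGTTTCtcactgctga
Ifit3, chr19:34583363-34583426, plus strand: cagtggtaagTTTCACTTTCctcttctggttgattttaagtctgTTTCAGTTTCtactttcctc
Rsad2, chr12:26456553-26456582, minus strand: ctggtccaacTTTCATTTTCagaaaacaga
Oas1a, chr5:120907526-120907555, minus strand: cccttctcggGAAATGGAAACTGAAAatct
Oas3, chr5:120777715-120777744, minus strand: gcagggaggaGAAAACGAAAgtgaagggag
Trim30a, chr7:104465210-104465239, minus strand: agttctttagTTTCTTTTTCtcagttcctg
Ifitm2, chr7:140955988-140956017, minus strand: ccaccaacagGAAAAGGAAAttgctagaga
Stat2, chr10:128270266-128270295, plus strand: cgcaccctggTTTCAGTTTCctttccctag

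Isg15 carries 3 overlapping matches that begin 78, 72 and 66 bases before its start, and Oas1a carries 2 overlapping ones that begin 20 and 14 bases before its start. In Ifit1 the 2 matches begin 104 and 85 bases before the start and in Ifit3 156 and 122 bases before it. The single matches begin 36 bases before the start in Trim30a, 46 in Ifitm2, 75 in Oas3, 120 in Rsad2 and 222 in Stat2. The starts used for Ifitm2 and Ifit3, and by a few bases those for Oas1a and Oas3, lie inside the annotated genes and are alternative ones. The other 3 members with a match, Ifih1, Eif2ak2 and Ifitm3, hold it after the start.

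**Figure D1:**
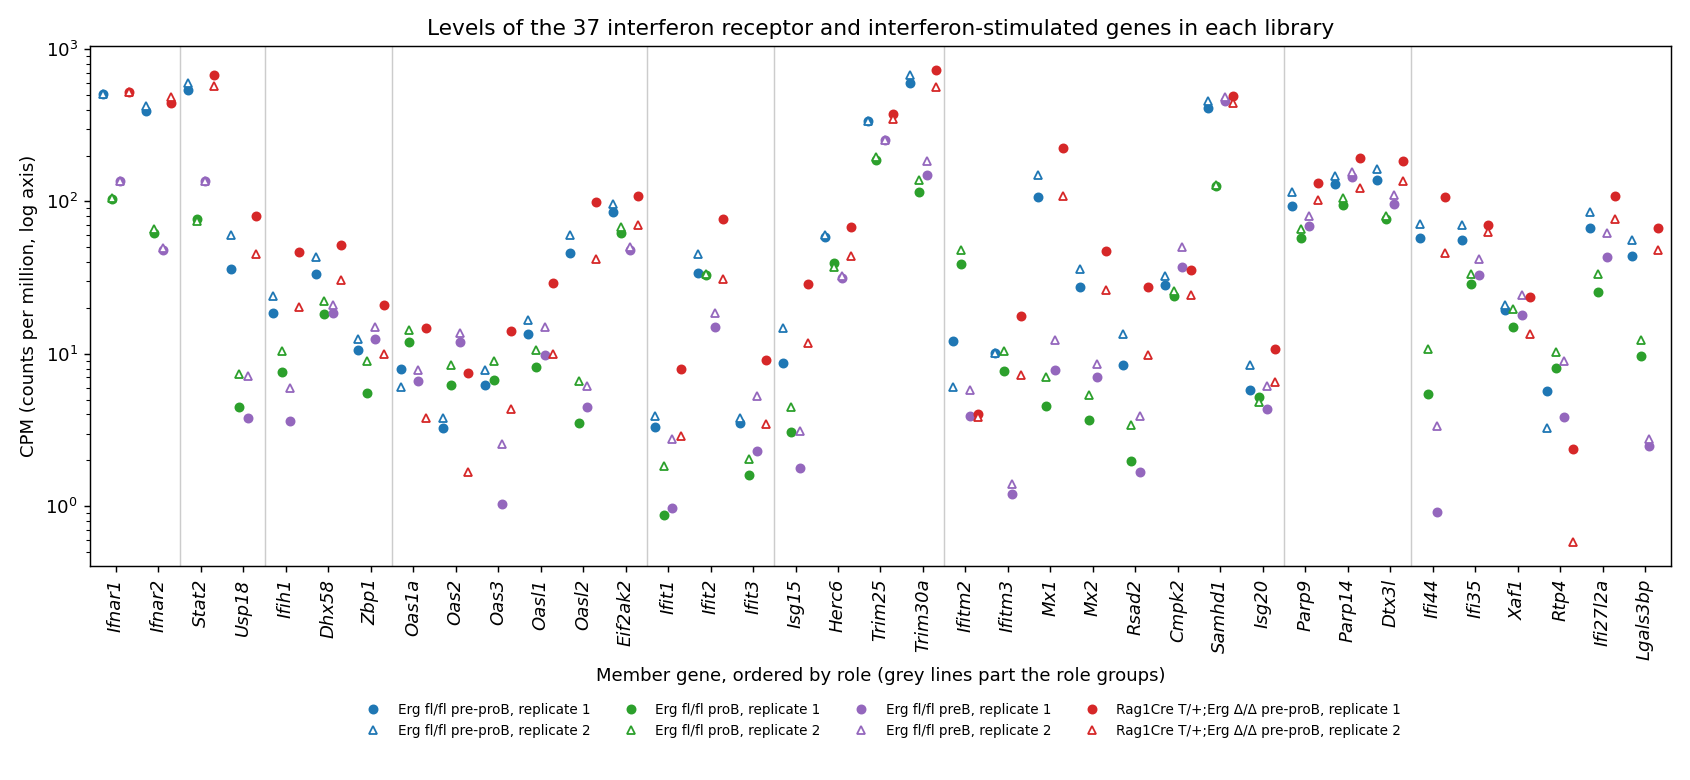
CPM of each of the 37 members on a log axis, with 1 point per library, filled circles for replicate 1 and open triangles for replicate 2, in the 4 groups. Most members are high in the 4 pre-proB libraries (blue and red) and lower in proB and preB cells, Samhd1 is as high in preB as in pre-proB cells, and Ifitm2 is highest in proB cells.

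Before the comparisons, the spread within groups has to be given, since the members moved together between replicates. In Erg fl/fl cells 32 of 37 members were higher in replicate 2 than in replicate 1 at the pre-proB stage, 34 at the proB stage and 35 at the preB stage. The median member differed by a factor of 1.18, 1.26 and 1.24 in that order, while for all 13811 genes that reached 0.5 CPM in 2 libraries the medians were 1.00, 1.00 and 1.00. At all 3 stages at once, 29 of the 37 members (78.4%) were higher in replicate 2, against 17.8% of those genes. In Erg-deficient pre-proB cells it was replicate 1 that was higher, for 36 of 37 members, with a median factor of 1.76. There 24 of 37 members (64.9%) were more than 1.5-fold higher in replicate 1, against 5.42% of all those genes. The exception was Ifnar2, at 444 and 487 CPM.

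The difference between the Erg-deficient libraries was wide for the OAS genes and Rsad2, among others. Oas2 was at 7.46 and 1.67 CPM there, Oas1a at 14.8 and 3.80, Oas3 at 14.2 and 4.31 and Rsad2 at 27.6 and 9.79. It was narrow for the receptor chain Ifnar1, at 526 and 518 CPM, and for Ifi35, at 70.5 and 62.7 CPM. Among related lists, all 18 interferon-gamma-inducible GTPase genes, 56 of 63 further interferon-stimulated genes, 13 of 15 sensing genes and 11 of 13 class I genes were higher in replicate 1. Receptors and signalling genes were even, with 9 of 17 higher in replicate 1 and a median factor of 1.00. Among markers of cell types, the myeloid-like list summed to 177 and 414 CPM in proB replicates 1 and 2. It summed to 1064 and 1100 in Erg fl/fl pre-proB and to 87.8 and 66.5 in preB cells. The part of such markers in the members' spread, and of that spread in any comparison below, was not tested. The labels do not say whether a replicate number marks a mouse or a day.

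**Figure D2:**
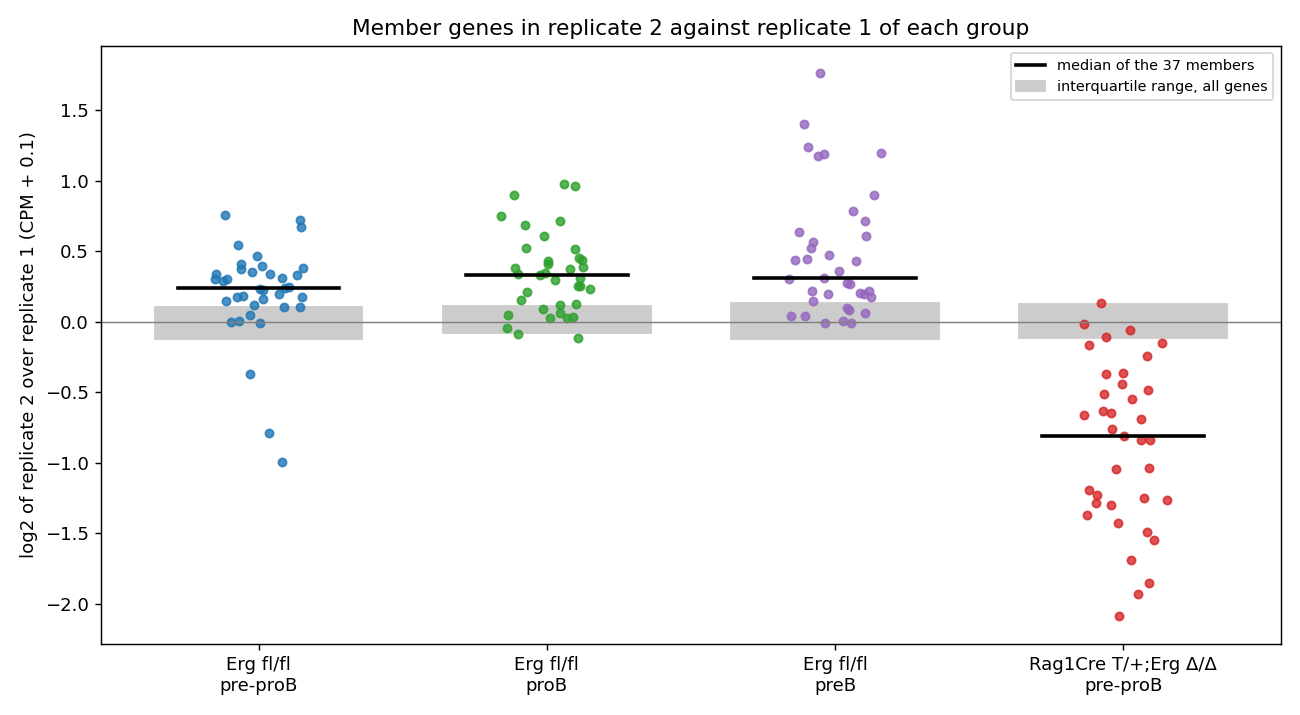
Log2 of replicate 2 over replicate 1 (CPM + 0.1) for the 37 members in each group, with the median of the members as a black bar and the interquartile range of the 13811 genes as a grey box. The members lie mostly above 0 in the 3 Erg fl/fl groups and, apart from Ifnar2, below 0 in Erg-deficient pre-proB cells.

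The first question was how the members change from pre-proB to proB cells. Of the 37 members 27 were lower and 4 higher in proB cells by edgeR's quasi-likelihood test at an adjusted p below 0.05. In this comparison 73.0% of the 13650 genes tested were called, 36.8% as lower and 36.2% as higher. The median log2 fold change was -0.91 over the members and 0.00 over all genes tested. All 37 members together summed to 3959 and 4432 CPM in pre-proB and 1291 and 1427 in proB cells, a ratio of 3.09. From proB to preB cells 14 members rose and 11 fell, where 58.9% of genes were called, 29.0% as higher and 29.9% as lower, and the sum came to 1828 and 2027 CPM. In preB against pre-proB cells 24 were lower and 2 higher, against 34.1% and 36.5% of genes of 70.7% called in all, with a median of -0.85 over the members and 0.04 over all genes. Plasmacytoid dendritic-like markers moved with the first of these steps, since all 16 fell from pre-proB to proB with a median log2 fold change of -5.72. All 6 tested conventional dendritic-like markers and 13 of 14 NK-like markers fell as well. T-like markers mostly fell too, with 8 of 10 lower and 2 higher and a median of -3.76. Myeloid-like markers had 5 lower and 3 higher (median -0.72), while their sum went from 1064 and 1100 CPM to 177 and 414. Plasma cell-like and erythroid-like markers were mixed or rose. Plasma cell-like markers had 3 lower and 4 higher, and of 5 tested erythroid-like markers 0 were lower and 4 higher. The part of these cell types in the members' fall was not tested.

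**Figure D3:**
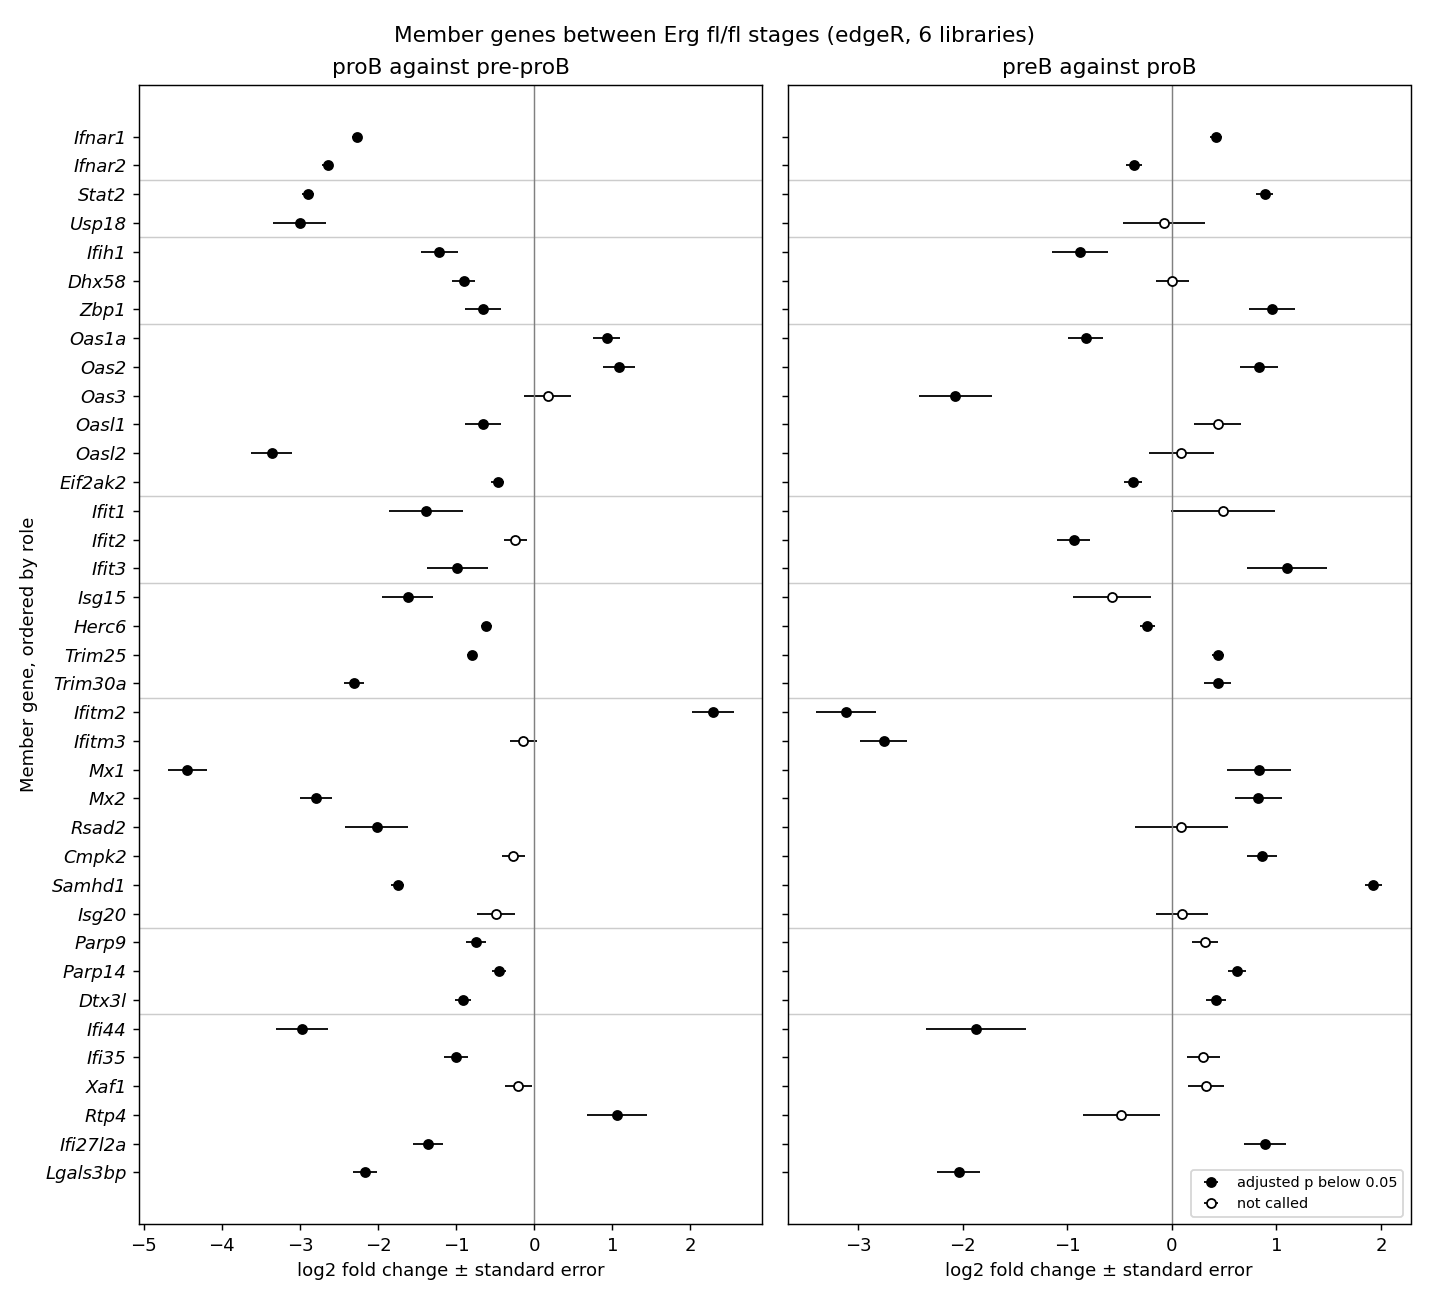
Log2 fold change of each member with its standard error, proB against pre-proB on the left and preB against proB on the right, from edgeR on the 6 Erg fl/fl libraries, with filled points for an adjusted p below 0.05. On the left 27 filled points lie below 0 and 4 above it, and on the right 14 lie above and 11 below.

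The paths over both steps were not uniform. A total of 12 members fell and then rose (Ifnar1, Stat2, Zbp1, Ifit3, Trim25, Trim30a, Mx1, Mx2, Samhd1, Parp14, Dtx3l and Ifi27l2a). Another 9 fell and then showed no called change (Usp18, Dhx58, Oasl1, Oasl2, Ifit1, Isg15, Rsad2, Parp9 and Ifi35), and 6 fell at both steps (Ifnar2, Ifih1, Eif2ak2, Herc6, Ifi44 and Lgals3bp). Oas2 rose at both steps, Oas1a and Ifitm2 rose and then fell, and Rtp4 rose with no called change after. Oas3, Ifit2 and Ifitm3 changed by call only at the second step, downward, and Cmpk2 only at the second step, upward. Isg20 and Xaf1 passed the test at neither step. Among the 13650 genes tested, 15.2% fell and then rose, 14.2% fell with no called change after, 7.41% fell at both steps and 6.45% rose at both. Another 17.4% rose and then fell, 12.4% rose with no called change after, 5.10% fell and 7.38% rose only at the second step, and 14.5% were called at neither.

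The receptor chains stood among the most abundant members per length of transcript. Ifnar1, which binds type I interferon together with Ifnar2, was at 507 and 505 CPM in pre-proB cells, 103 and 105 at the proB stage and 135 and 136 at the preB stage. Ifnar2 was at 392 and 422, 62.3 and 66.2, and 47.9 and 49.3 CPM in the same order. The groups did not overlap for either chain and the replicates lay close together. From pre-proB to proB Ifnar1 fell 4.81-fold (log2 fold change -2.27, standard error 0.0611, adjusted p = 1.25e-08 by edgeR) and Ifnar2 6.26-fold (-2.65, standard error 0.0735, adjusted p = 1.45e-08 by edgeR). In preB cells they parted: Ifnar1 rose 1.34-fold from proB (adjusted p = 0.000459, edgeR) while Ifnar2 fell a further 1.29-fold (adjusted p = 0.00318, edgeR). Per kilobase of exon, Ifnar2 stood at 122 ± 6.42 CPM (SD, n = 2) and Ifnar1 at 85.2 ± 0.280 (SD, n = 2) in pre-proB cells. In preB cells the order was the other way round, 14.6 ± 0.306 for Ifnar2 and 22.8 ± 0.0336 for Ifnar1 (SD, n = 2 each).

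Stat2, a subunit of the transcription complex that binds the ISRE, was at 540.2 and 598 CPM in pre-proB cells, 76.5 and 74.3 at the proB stage and 136 and 135 at the preB stage. It fell 7.46-fold to proB (log2 fold change -2.90, standard error 0.0800, adjusted p = 1.41e-08 by edgeR) and rose 1.85-fold to preB (adjusted p = 3.45e-05, edgeR). Usp18, a protease that removes Isg15 from proteins and also blocks signalling at Ifnar2, fell from 36.2 and 59.9 CPM to 4.46 and 7.37 in proB cells, and stood at 3.79 and 7.17 in preB cells. The fall of Usp18 was 8.02-fold (log2 fold change -3.00, standard error 0.338, adjusted p = 5.21e-05 by edgeR), and the step to preB was not called (adjusted p = 0.883). Stat2 and Usp18, an activator and a brake of the pathway, were thus both highest in pre-proB cells.

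The 3 sensors were less abundant. Ifih1, which encodes the sensor of long double-stranded RNA MDA5, went from 18.6 and 24.1 CPM in pre-proB cells to 7.65 and 10.5 at the proB stage and 3.62 and 5.99 at the preB stage. Dhx58, which encodes its relative LGP2, went from 33.6 and 42.9 to 18.2 and 22.3 and then 18.6 and 21.0 CPM. Zbp1, a sensor of left-handed nucleic acid helices, was at 10.6 and 12.6, then 5.56 and 8.996, then 12.5 and 15.1 CPM. All 3 fell at the first step, by log2 fold changes of -1.22 for Ifih1 (edgeR adjusted p = 0.00159), -0.90 for Dhx58 (0.000571) and -0.66 for Zbp1 (0.0272), and they differed at the second. There Ifih1 fell by 0.88 on the log2 scale (edgeR adjusted p = 0.0198), Zbp1 rose by 0.96 (0.00588), and Dhx58 had a log2 fold change of 0.01 (0.980).

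The oligoadenylate synthetase family, enzymes that make the activator of RNase L when they meet double-stranded RNA, was not uniform. Oas1a was at 7.90 and 6.09 CPM in pre-proB cells, 12.0 and 14.3 at the proB stage and 6.67 and 7.78 at the preB stage. Oas2 climbed from 3.24 and 3.80 to 6.27 and 8.47 and then 11.9 and 13.7 CPM. Oas3 was at 6.28 and 7.78, then 6.71 and 8.94, then 1.03 and 2.58 CPM. These 3 genes are neighbours on chromosome 5, and their courses differed. Oas2 rose at both steps, by 1.08 (standard error 0.205, adjusted p = 0.00133 by edgeR) and 0.83 (standard error 0.182, adjusted p = 0.00440 by edgeR) on the log2 scale, Oas1a peaked in proB cells with 0.93 and -0.82 (edgeR adjusted p = 0.00111 and 0.00317), and Oas3 fell 4.20-fold from proB to preB (edgeR adjusted p = 0.00116) after a step of 0.17 that was not called (0.630).

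Oasl1 and Oasl2, OAS-like genes that also lie next to each other on chromosome 5, differed from those 3. Oasl2 dropped from 45.9 and 60.2 CPM in pre-proB cells to 3.52 and 6.64 at the proB stage and 4.48 and 6.10 at the preB stage, 10.3-fold at the first step (log2 fold change -3.36, standard error 0.261, adjusted p = 4.78e-06 by edgeR). Oasl1 moved from 13.4 and 16.6 to 8.20 and 10.7 and then 9.83 and 15.1 CPM, a log2 fold change of -0.65 at the first step (edgeR adjusted p = 0.0275). Eif2ak2, which encodes the translation-blocking kinase PKR, fell in small steps from 84.7 and 96.3 to 62.1 and 67.6 and then 47.8 and 49.9 CPM, by 0.46 and 0.37 on the log2 scale (edgeR adjusted p = 0.00101 and 0.00603).

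The IFIT genes, whose products bind foreign RNA ends, were mostly near the lower end of the range. Ifit1 was at 3.30 and 3.92 CPM in pre-proB cells, 0.880 and 1.83 at the proB stage and 0.977 and 2.74 at the preB stage. Ifit3 was at 3.50 and 3.80, then 1.60 and 2.04, then 2.30 and 5.32 CPM. Ifit2 was at 34.0 and 45.1, then 32.8 and 33.5, then 15.0 and 18.6 CPM. It was the only IFIT gene without a called fall to proB (log2 fold change -0.24, edgeR adjusted p = 0.167), and it fell 1.92-fold from proB to preB (edgeR adjusted p = 0.00103). Ifit1 and Ifit3 fell to proB by 1.39 and 0.98 on the log2 scale (edgeR adjusted p = 0.0264 and 0.0463), and Ifit3 rose by 1.10 to preB (0.0352). Ifit3 has a near-identical copy, Ifit3b, and the 3 genes lie within a cluster on chromosome 19, so reads of copies may be shared.

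Isg15 encodes a ubiquitin-like protein, and Herc6 the ligase that attaches it in mice. Isg15 was at 8.68 and 14.7 CPM in pre-proB cells, 3.08 and 4.45 at the proB stage and 1.78 and 3.14 at the preB stage, and Herc6 at 58.7 and 60.6, 39.6 and 37.3, and 31.4 and 32.3. Isg15 fell 3.07-fold to proB (log2 fold change -1.62, standard error 0.329, adjusted p = 0.00200 by edgeR), with the step to preB not called (0.213), and Herc6 fell 1.53-fold and then 1.18-fold (edgeR adjusted p = 5.65e-05 and 0.0217). The ubiquitin ligases of the TRIM family were far more abundant and turned upward again in preB cells. Trim25, which acts on the RNA sensor RIG-I, was at 336 and 336, 188 and 195, and 254 and 253 CPM. Trim30a was at 596 and 674, 116 and 138, and 149.9 and 185 CPM, the highest mean of all members in pre-proB cells. Their falls were 1.73-fold and 4.95-fold (edgeR adjusted p = 4.13e-06 and 6.52e-07) and their rises 1.36-fold and 1.35-fold (0.000354 and 0.0162).

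Among genes that restrict viral entry or copying, the Mx dynamin-like GTPases fell furthest from pre-proB to proB. Mx1 went from 107 and 148 CPM in pre-proB cells to 4.57 and 7.01 at the proB stage and 7.88 and 12.3 at the preB stage, and Mx2 from 27.6 and 35.9 to 3.69 and 5.33 and then 7.07 and 8.57. The fall of Mx1 to proB was 21.7-fold (log2 fold change -4.44, standard error 0.254, adjusted p = 7.51e-07 by edgeR), the largest of the 37 members, and that of Mx2 6.94-fold (-2.79, standard error 0.209, adjusted p = 3.88e-06 by edgeR). Both rose to preB, by 0.83 and 0.83 on the log2 scale (edgeR adjusted p = 0.0433 and 0.0126). Samhd1, which degrades the nucleotides that viral polymerases need, had the clearest recovery, from 407 and 455 to 126 and 128 and back to 458 and 485 CPM. It fell 3.35-fold (log2 fold change -1.74, standard error 0.0831, adjusted p = 2.51e-07 by edgeR) and rose 3.80-fold (1.93, standard error 0.0835, adjusted p = 2.81e-06 by edgeR), so that preB and pre-proB cells differed by 0.18 on the log2 scale (edgeR adjusted p = 0.0683). That difference was called with total counts, with immunoglobulin genes left out and with the replicate block.

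The IFITM genes, which hinder fusion of viruses with endosomes, followed another course. Ifitm2 was at 12.1 and 6.03 CPM in pre-proB cells, 38.7 and 48.0 at the proB stage and 3.91 and 5.82 at the preB stage, a rise of 4.88-fold (log2 fold change 2.29, standard error 0.269, adjusted p = 6.8e-05 by edgeR) and then a fall of 8.66-fold (-3.11, standard error 0.287, adjusted p = 4.46e-05 by edgeR). Its proB libraries lay above those of both other stages. Its neighbour Ifitm3 stayed at 10.1 and 10.1, then 7.70 and 10.5 CPM, without a called first step (edgeR adjusted p = 0.509), and fell 6.76-fold to 1.21 and 1.40 CPM in preB cells (edgeR adjusted p = 2.36e-05).

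Rsad2 and Cmpk2, a neighbouring pair on chromosome 12, encode viperin, which makes a chain-terminating nucleotide, and a mitochondrial nucleotide kinase. Rsad2 fell from 8.49 and 13.6 CPM to 1.98 and 3.40 in proB (4.04-fold, edgeR adjusted p = 0.00180) and was at 1.67 and 3.92 in preB cells. Cmpk2 was at 28.2 and 32.3, 23.8 and 25.8, and 37.4 and 50.3 CPM, with no called first step (0.132) and a rise of 1.81-fold at the second (edgeR adjusted p = 0.00108). Rsad2 was thus lower and Cmpk2 higher in preB than in pre-proB cells, by edgeR at adjusted p = 0.00247 and 0.00530. The nuclease gene Isg20 ranged from 4.37 to 8.44 CPM over the 6 Erg fl/fl libraries and was called in no comparison.

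Parp9 and Parp14 encode ADP-ribosyl transferase family proteins, and Dtx3l a ubiquitin ligase that binds Parp9. Parp9 was at 93.9 and 116, 57.3 and 66.3, and 69.2 and 80.4 CPM, Parp14 at 129.6 and 146, 94.2 and 105, and 145 and 155, and Dtx3l at 138 and 162, 77.2 and 80.6, and 96.1 and 109.9. All 3 fell to proB, by 0.75, 0.45 and 0.91 on the log2 scale (edgeR adjusted p = 0.000579, 0.00145 and 4.22e-05). Parp14 and Dtx3l rose to preB by 0.63 and 0.42 (0.000395 and 0.00648), and the step of Parp9, 0.31, was not called (0.0574). Dtx3l (chr16:35926515-35939027) and Parp9 (chr16:35938470-35972621) overlap by their ends, and whether strand was used in counting is not given in the sources used here. Thus some of their reads may be shared.

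The other members fell into opposite patterns. Ifi44, a gene of unsettled function, went from 57.9 and 70.8 CPM in pre-proB cells to 5.45 and 10.7 at the proB stage and 0.920 and 3.36 at the preB stage. Lgals3bp, which encodes a secreted glycoprotein, went from 44.1 and 55.7 to 9.74 and 12.3 and then 2.47 and 2.74 CPM. They had the largest falls over both steps, 28.7-fold for Ifi44 and 18.4-fold for Lgals3bp in preB against pre-proB cells (edgeR adjusted p = 8.94e-06 and 1.96e-07). Rtp4, a chaperone of receptors, went the other way at the first step, from 5.70 and 3.26 to 8.09 and 10.3 CPM (log2 fold change 1.06, standard error 0.384, adjusted p = 0.0333 by edgeR), and was at 3.85 and 8.96 CPM in preB cells.

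Ifi27l2a and Ifi35 both fell at the first step. Ifi27l2a, which encodes a small membrane protein, was at 67.2 and 84.7, 25.4 and 33.2, and 43.3 and 62.4 CPM, 2.57-fold lower in proB (edgeR adjusted p = 0.000246) and then 1.85-fold higher in preB cells (0.00474), where it was not called against pre-proB cells (log2 fold change -0.47, edgeR adjusted p = 0.0501). That difference was called, as lower in preB cells, with DESeq2 size factors, no filter, a minimum of 1 CPM, DESeq2 and limma-voom. It was also called with immunoglobulin genes left out and with the replicate block. Ifi35 was at 55.7 and 70.4, 28.6 and 33.6, and 32.7 and 41.9 CPM, 2.01-fold lower in proB (edgeR adjusted p = 0.000358) with a second step not called (0.131). Xaf1, which encodes a partner of an inhibitor of apoptosis, ranged from 15.0 to 24.4 CPM over the 6 libraries. It was called in no comparison as reported here, but was called from proB to preB with the replicate block.

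Of the 31 calls from pre-proB to proB, 24 held in all 17 alternatives that were run, and all 31 kept their sign in them. The other 7 were Zbp1, Oas1a, Oas2, Oasl1, Ifit1, Ifit3 and Rtp4, none of which was called with all 8 libraries in one fit, where 1 member was higher and 23 lower. Zbp1, Oasl1, Ifit1, Ifit3 and Rtp4 were also lost without pre-proB replicate 2, Zbp1, Oasl1, Ifit1 and Ifit3 without proB replicate 1, Ifit3 and Rtp4 without proB replicate 2, Ifit3 without pre-proB replicate 1 and Zbp1 without preB replicate 2. The fall of Ifit3 was also lost with total counts, a minimum of 1 CPM, DESeq2, limma-voom and the version 4 quasi-likelihood of edgeR, and the rise of Rtp4 with robust estimation. Without proB replicate 2 the log2 fold change of Ifit1 was -2.04 and that of Ifi44 -3.57.

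The step from proB to preB rested more on single libraries, and 12 of its 25 calls held in all 17 alternatives. Without preB replicate 2, the library with the higher values, 6 members were called higher and 12 lower, and the median over the members was -0.13 in place of 0.30. The rises of Dtx3l, Ifi27l2a, Ifit3, Mx1, Mx2, Oas2, Trim30a and Zbp1 were not called there, and Rtp4 was called lower. Without proB replicate 1 Herc6, Ifit3, Mx1, Mx2 and Trim30a were lost, without proB replicate 2 Ifi44, Ifih1 and Ifit3, and without preB replicate 1 Herc6, Ifi44 and Ifih1. With all 8 libraries in one fit Eif2ak2, Herc6, Ifih1, Ifit3, Mx1, Mx2, Oas1a and Oas2 were lost. Mx1 was also lost with total counts, a minimum of 1 CPM, DESeq2, limma-voom and robust estimation, Ifit3 with DESeq2 and limma-voom, and Ifi27l2a and Ifi44 with robust estimation. The log2 fold change of Ifi44 was -1.23 without preB replicate 1 and -3.14 without preB replicate 2, where that of Oas3 was -2.92 and that of Ifit3 0.33. In preB against pre-proB cells Ifitm2 was lost without pre-proB replicate 1, proB replicate 1 or either preB library and with total counts, a minimum of 1 CPM, limma-voom, robust estimation and the replicate block, Parp9 was lost without preB replicate 1, and without preB replicate 2 the values were -2.73 for Oas3, -2.69 for Rsad2 and -6.09 for Ifi44, with -4.20 for Ifi44 without preB replicate 1.

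The members with and without the ISRE letters are set side by side as a description. As background, 36.8% of all genes were called lower and 36.2% higher from pre-proB to proB. From proB to preB 29.9% were lower and 29.0% higher, and in preB against pre-proB cells 34.1% and 36.5%. From pre-proB to proB 8 of the 12 members with a match fell and 2, Oas1a and Ifitm2, rose, and 11 of the 15 without one fell. Isg15, Ifit1, Ifit3, Rsad2, Trim30a and Stat2, all with the letters shown above, fell at that step. From proB to preB 3 of the 12 with a match rose and 6 fell, and 5 of the 15 without one rose and 5 fell, with median log2 fold changes of -0.47 and 0.30. Of the 10 members without a window, 8 fell and 2 rose at the first step, and 6 rose and 0 fell at the second (median 0.73). In preB against pre-proB cells the medians were -1.88 with a match (9 lower, 0 higher), -0.70 without (10 lower, 1 higher) and -0.45 without a window (5 lower, 1 higher), and these differences were not tested.

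The second question was whether the members differ in Erg-deficient pre-proB cells. None of the 37 was called by edgeR between Erg-deficient and Erg fl/fl pre-proB cells, where 1.16% of the 13005 genes tested were called, 0.215% as higher and 0.946% as lower. At an unadjusted p below 0.05 there were 3 members (Ifnar2, Ifitm2 and Rtp4), against 1624 of the 13005 genes. DESeq2 and limma-voom also called 0 members. The median log2 fold change of the members was 0.20, with 31 positive and 6 negative, and it was 0.01 over all genes. The sign of that median was set by 1 library: it was -0.22 without Erg-deficient replicate 1, with 32 of 37 negative, and 0.51 without replicate 2, with 35 of 37 positive. A p that misses the threshold in a design of 2 against 2 does not show that the levels were the same.

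**Figure D4:**
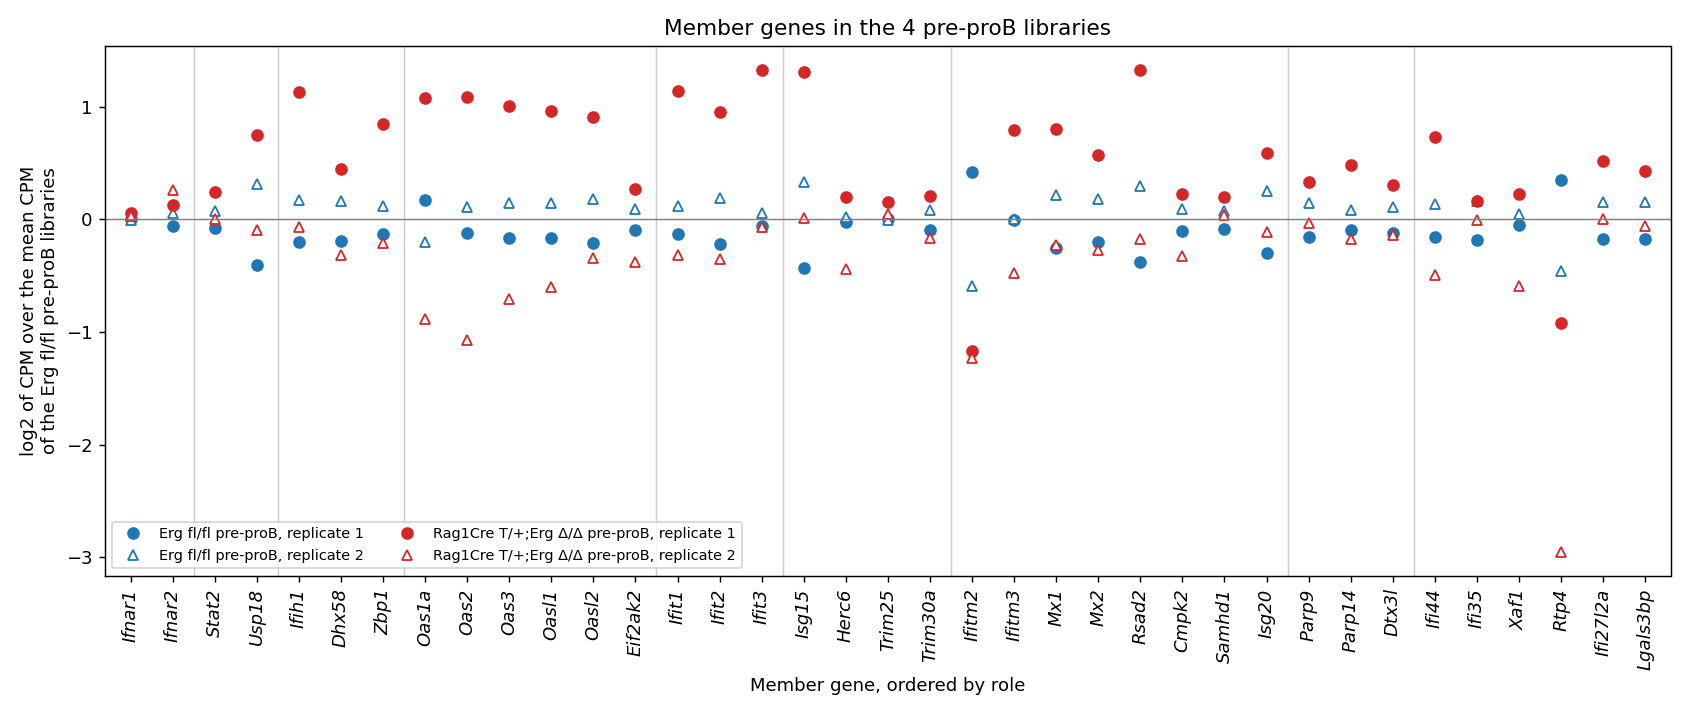
Log2 of the CPM of each member over its mean in control (Erg fl/fl) pre-proB cells, for each of the 4 pre-proB libraries. Most members are higher in Erg-deficient replicate 1 (filled red circles) than in the other 3 libraries, while Ifitm2 and Rtp4 lie lower in both Erg-deficient libraries.

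Members whose libraries did not overlap between the genotypes are not counted here, since the share of all genes without overlap was not counted. With 2 against 2 libraries, lack of overlap is common without any difference, since an exact permutation test cannot go below p = 0.333. Ifitm2 had 12.1 and 6.03 CPM in the control and 4.04 and 3.86 in the Erg-deficient libraries (log2 fold change -1.20, standard error 0.338, edgeR adjusted p = 0.196). It was called in 1 of 15 alternatives, without Erg fl/fl replicate 2, at -1.63. Rtp4 was at 5.70 and 3.26 against 2.36 and 0.580 CPM (-1.60, standard error 0.578, adjusted p = 0.326 by edgeR). Both belong to the 4 members that rose from pre-proB to proB cells in Erg fl/fl mice. In both, Erg fl/fl replicate 1 was the higher library, as it was for the early B-like markers, of which 8 of 10 were called lower in Erg-deficient cells, and the part of those markers in the values of Ifitm2 and Rtp4 was not tested.

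The receptor chains were not called between genotypes. Ifnar1 was at 526 and 518 CPM in Erg-deficient pre-proB cells against 507 and 505 (log2 fold change 0.04, standard error 0.0624, edgeR adjusted p = 0.843). Ifnar2 was at 444 and 487 against 392 and 422 (0.19, standard error 0.0757, edgeR adjusted p = 0.384), and Trim25 at 374 and 347 against 336 and 336 (0.09, edgeR adjusted p = 0.620). In each of these 3 both Erg-deficient libraries stood above both Erg fl/fl libraries, which is not read as a difference.

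In other members, among them Isg15 and Mx1, the libraries of the genotypes overlapped. Isg15 was at 28.9 and 11.8 CPM in Erg-deficient against 8.68 and 14.7 (log2 fold change 0.79, standard error 0.421, edgeR adjusted p = 0.501). Mx1 was at 223 and 109 CPM against 107 and 148 (0.37, standard error 0.314, edgeR adjusted p = 0.684). In each, Erg-deficient replicate 1 stood above the other 3 libraries. NK-like markers were higher in Erg-deficient pre-proB cells, 7 of 14 by call, with sums of 383 and 569 CPM against 253 and 271, highest in replicate 2, where most members were low. T-like markers, 0 of 10 by call, summed to 1520 and 903 CPM against 709 and 866, highest in replicate 1, where most members were high. A single gene held 19433 of the 24470 counts of the T-like list in that library. Gene by gene 7 T-like markers were positive and 3 negative, with a median log2 fold change of 0.10. Mature B-like markers summed to 3493 and 2994 against 2220 and 2514, and myeloid-like markers to 1266 and 1156 against 1064 and 1100, also highest in replicate 1. Gene by gene these lists did not rise. Of 6 mature B-like genes tested 3 were positive and 3 negative (median log2 fold change -0.19), with 1 called lower and 0 higher. Of 12 myeloid-like genes 3 were positive and 9 negative (median -0.37), with 1 called lower and 0 higher. The part of these markers in the members' values was not tested.

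The rest of the interferon pathway was read from lists of related genes. The interferon genes themselves were at or near 0: the 21 listed summed to between 0.115 and 1.93 CPM in a library, 11 of them had no count anywhere, and none had more than 14 counts in a library. Ifnb1, the first interferon made on infection, had 6 counts in Erg-deficient replicate 1, 1 in Erg fl/fl pre-proB replicate 1 and 0 in the other 6 libraries. Ifng had 14 and 13 counts in Erg-deficient pre-proB cells against 4 and 1 in Erg fl/fl. It was the only listed interferon gene that passed the filter, and it was not called (log2 fold change 2.38, edgeR adjusted p = 0.170). At this depth no interferon beyond these counts was detectable, and interferon from other cells of the marrow was not measured.

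**Figure D5:**
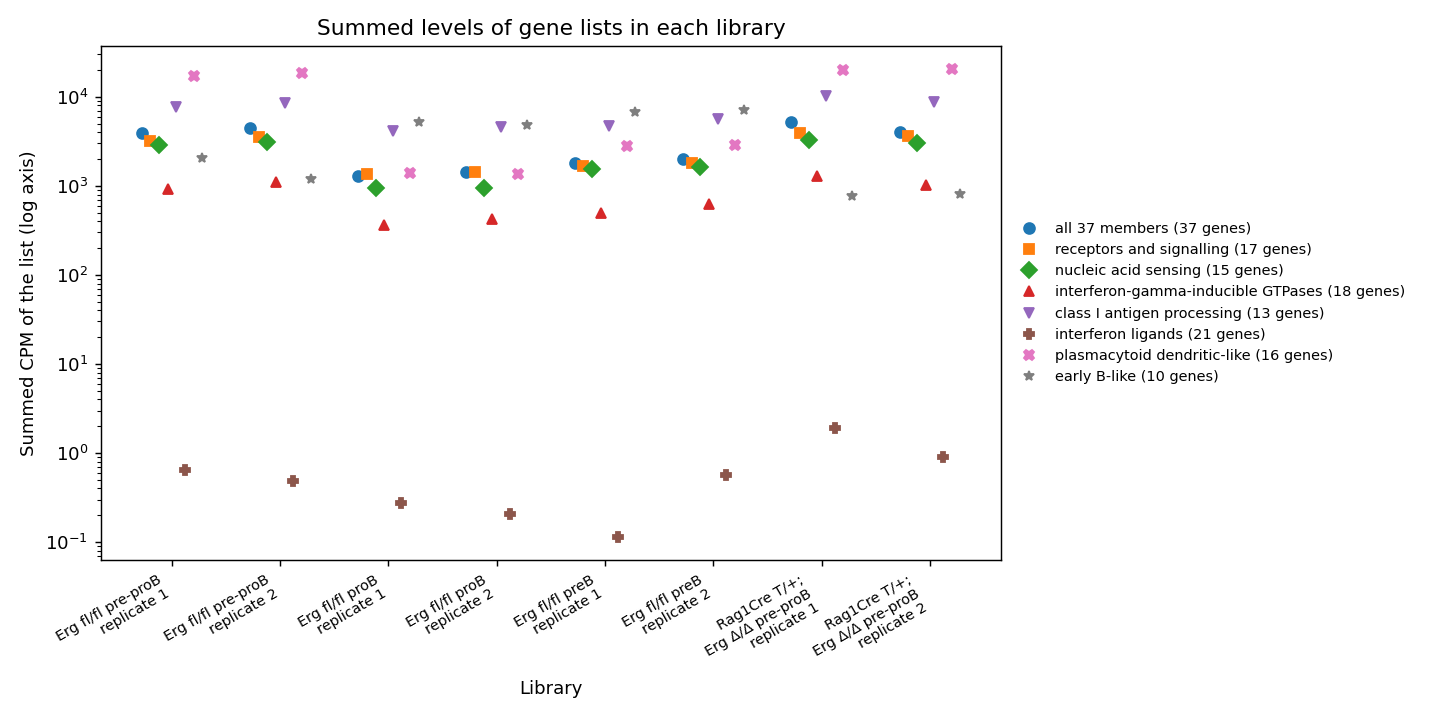
Summed CPM of 8 gene lists in each of the 8 libraries on a log axis, with 1 point per library and list and lists set slightly apart along the horizontal axis. The 37 members fall from pre-proB to proB cells together with the signalling, sensing, GTPase, class I and plasmacytoid dendritic-like lists, the early B-like list rises, and the interferon ligands stay below 2 CPM in each library.

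Of the 17 receptors and signalling genes listed, 9 were lower and 3 higher in proB than pre-proB cells, where 36.8% and 36.2% of all genes were. In preB against proB cells 11 were higher and 1 lower, where 29.0% and 29.9% of all genes were. Irf7, which drives the second wave of interferon genes, went from 286 and 362 CPM to 12.3 and 15.0 and then 7.07 and 12.0, a 23.4-fold fall (edgeR adjusted p = 1.76e-07). The receptor kinases Tyk2 and Jak2 fell 3.89-fold and 3.71-fold (edgeR adjusted p = 5.03e-08 and 4.61e-08). Socs1, an inhibitor of these kinases, did the opposite, from 2.91 and 4.22 to 6.66 and 6.12 and then 26.8 and 29.9 CPM, rising 4.55-fold at the second step (edgeR adjusted p = 1.55e-05).

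In the same list 1 gene was called between genotypes. Ifnlr1, which encodes the receptor chain for type III interferon, had 6.09 and 2.35 CPM in control pre-proB cells, 5.67 and 5.70 at the proB stage and 1.15 and 2.30 at the preB stage. In Erg-deficient pre-proB cells it had 1 count over both libraries against 133 in Erg fl/fl, a ratio of 131 with a 95% counting interval from 23.2 to 5226 (edgeR adjusted p = 0.0303 for the difference). Counting error is the only error in that interval, and Erg fl/fl replicate 1 held more Ifnlr1 than replicate 2, the order in which the early B-like sums of these libraries stand. The call was lost with limma-voom (adjusted p = 0.106) and without Erg-deficient replicate 1 or 2 (edgeR adjusted p = 0.189 and 0.186).

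The list of nucleic acid sensing outside the members holds 15 genes, sensors together with adaptors and kinases that act after them. From pre-proB to proB cells 12 of these genes fell and 1 rose, and then 9 rose and 3 fell. Of all genes tested 36.8% were called lower and 36.2% higher at the first step. At the second step 29.0% were called higher and 29.9% lower. Tlr7 and Tlr9, receptors for single-stranded RNA and unmethylated DNA, fell 36.1-fold and 11.4-fold (edgeR adjusted p = 1.04e-08 and 1.33e-08). Tlr7 fell again in preB cells, to 3.22 and 4.31 CPM, and Tlr9 rose 2.92-fold to 64.2 and 68.2. Rigi, the RNA sensor on which Trim25 acts, was the gene that rose, from 20.4 and 15.3 to 50.9 and 51.9 and then 134 and 154 CPM (2.93-fold and 2.88-fold, edgeR adjusted p = 5.04e-06 and 1.11e-05). The member Ifih1, a sensor of the same family, fell at both steps. No gene of this list was called between genotypes, and 1 of 15 had an unadjusted p below 0.05 in the edgeR test.

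Interferon-gamma-inducible GTPases, genes of class I antigen processing and 68 further interferon-stimulated genes completed the lists. Their counts stand against 36.8% of all genes called lower and 36.2% higher from pre-proB to proB. From proB to preB 29.0% of all genes were called higher and 29.9% lower. Of 18 GTPase genes 11 were lower and 2 higher in proB than pre-proB cells, among them Gbp8, from 116 and 134 to 1.82 and 3.09 CPM (50.1-fold lower, edgeR adjusted p = 2.91e-08). Gbp4 fell from 210.3 and 265 to 20.2 and 23.3 CPM and came back to 62.4 and 78.1 in preB cells. Of 13 class I genes 11 were lower and 0 higher, Tapbp by 4.13-fold (edgeR adjusted p = 3.06e-07), and 4 then rose and 3 fell in preB cells. The opposite was seen in Lgals9 of the further genes, from 190.1 and 144 to 849 and 829 CPM, 5.09-fold higher (edgeR adjusted p = 3.01e-07). Of the 62 further genes tested 41 fell and 14 rose to proB, and 30 rose and 14 fell to preB. Between genotypes the only call in these 3 lists was Ccl5, a chemokine that NK cells make too, at 34.6 and 48.8 CPM in Erg-deficient against 12.6 and 18.6 (2.66-fold, edgeR adjusted p = 0.0416), while 7 of 14 NK-like markers were also called higher there. The call of Ccl5 was lost with total counts, limma-voom, the version 4 quasi-likelihood, robust estimation and without Erg-deficient replicate 1 or 2, with adjusted p from 0.0510 to 0.272 in these, and its log2 fold change was between 1.14 and 1.71 in all 15 alternatives.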

How the data were processed

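Gene counts were deposited as 1 table of whole reads for each Entrez Gene identifier. The authors sequenced sorted cells, processed reads with CASAVA 1.8.2 and Trim Galore, used STAR for alignment to mm10 (GRCm38) and featureCounts for counting, and the use of strand in counting is not given in the sources used here. Among other markers, pre-proB cells were gated as B220+ IgM- IgD- NK1.1- CD11c- CD43+ CD24-, proB as CD43+ CD24+ and preB as CD43- CD24+ cells. Some genes and markers are not reported here.

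From the counts as deposited, edgeR 4.0.16 (R 4.3.3) fitted the quasi-likelihood model with TMM scaling to the 4 pre-proB libraries for genotype and to the 6 Erg fl/fl libraries for stage. Genes with at least 0.5 CPM in 2 libraries of a fit were tested, with Benjamini-Hochberg adjustment over all of them and a threshold of 0.05. Standard errors are the log2 fold change over the root of the F statistic. Each group holds 2 libraries, and an exact permutation test of 2 against 2 cannot go below p = 0.333, so p-values rest on the spread shared over genes. Per the study's methods the cells were sorted independently from 2 mice of each genotype, and the link from mouse to library is not given in the sources used here. The biological coefficient of variation was 9.02% for genotype and 7.42% for stage.

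Members and lists were chosen with earlier results of these data known. All 37 members are described, and of the other lists at most the 6 called genes with the lowest p per comparison were eligible to be named. Alternatives were DESeq2 1.42.0, limma 3.58.1, other scalings and filters, a fit of all 8 libraries, a replicate block and leaving out each library. The steps were tested on simulated data, where 93 of 100 genes changed 2-fold were recovered for genotype and 97 of 100 for proB against pre-proB, with 23 and 20 false calls, 10.6% and 9.22% of all calls made. The simulation drew genes independently, changed few of them and none of low mean. In the data 73.0% of genes were called from pre-proB to proB, and the members moved together between replicates. These rates therefore need not hold for the members. Promoter windows come from RefSeq, build GRCm38.p6.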

Additional observations from a re-analysis of the deposited data

How the results depend on the processing

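Between genotypes the number of all genes called, 151, was 279 with no filter, 400 with DESeq2, 41 with limma-voom, 88 with the version 4 quasi-likelihood of edgeR, 442 with all 8 libraries in one fit, and from 10 to 401 when 1 library was left out, while members called stayed at 0 in these settings except that leaving out 1 library gave 0 to 1. The median of the members ran from -0.22 to 0.51 when 1 library was left out. From proB to preB that median ran from -0.13 to 0.43. Same-numbered libraries of different groups had deviations that correlated between -0.029 and 0.119 for all genes, and whether a number marks a mouse is not given in the sources used here. A fit with the replicate block called 265 genes between genotypes and 32, 30 and 29 members for proB against pre-proB, preB against proB and preB against pre-proB. With all 8 libraries 24 and 17 members were called in the first and second of these. Members gained by the replicate block were Cmpk2 in the first comparison and Ifi35, Isg15, Oasl1, Parp9 and Xaf1 in the second. In preB against pre-proB cells the block gained Ifi27l2a, Ifit1, Parp14 and Samhd1. Parp9 was also called from proB to preB with immunoglobulin genes left out. Among members not called, the sign changed for Dhx58 from proB to preB (0.01 as reported), at -0.015 with DESeq2 size factors, -0.053 with total counts, -0.032 with no filter, -0.043 with a minimum of 1 CPM, -0.015 with the DESeq2 test, -0.0021 with all 8 libraries and -0.14 to 0.14 when 1 library was left out. With 1 library left out, log2 fold changes ran across 0 between genotypes for Mx1 (-0.24 to 0.80), from pre-proB to proB for Oas3 (-0.077 to 0.37) and Ifitm3 (-0.40 to 0.075), and from proB to preB for Usp18 (-0.65 to 0.32), Oasl2 (-0.29 to 0.61), Ifit1 (-0.48 to 1.09), Rsad2 (-0.70 to 0.58), Isg20 (-0.20 to 0.32) and Rtp4 (-1.26 to 0.0038). For preB against pre-proB they did so for Oas1a (-0.095 to 0.22), Oasl1 (-0.58 to 0.064), Ifit3 (-0.63 to 0.61), Xaf1 (-0.14 to 0.34) and Rtp4 (-0.18 to 1.07). The cause was not tested for any of these. Depth limits the members that fall to a few CPM or below in proB or preB cells, among them Ifit1, Ifit3, Oas3, Ifi44, Ifitm3, Isg15, Lgals3bp and Rsad2.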
